A study of Mus musculus with 1507 samples.

Results

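Transcripts annotated as substrates of nonsense-mediated decay (NMD) were followed in single mouse embryonic stem (ES) cells as these became primitive endoderm (PrE). Members were the transcripts that the deposited gene models class as nonsense mediated decay and whose mean level reached 1 TPM, a length-corrected level scaled to the total of each cell, at 0 h or at 72 h. This rule kept 2262 of 5375 annotated NMD transcripts (42.1%), among 115125 annotated transcripts in all, and left 3113 out. The members were thus chosen by their TPM at 0 h and 72 h, and values at these times are given as a description. Of the members, 1662 reached the threshold at both times, 246 only at 0 h and 354 only at 72 h. Just inside the threshold stood Clk4-007 (0.65 TPM at 0 h, 1.00 TPM at 72 h), Znrf1-011 (0.96 and 1.00) and Hddc2-005 (0.75 and 1.01). Just outside it stood Phc2-005 (1.00 TPM at 0 h, short of the threshold by rounding, and 0.95 TPM at 72 h), Thap4-004 (0.90 and 1.00) and Tbce-007 (1.00 and 0.56).

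All cells came from the 5G6GR line, feeder-free EB5 mouse ES cells with a randomly integrated Gata6-GR-IRES-Puro construct, whose GATA6 fusion protein drives differentiation once dexamethasone is given in place of blasticidin. Every ES cell used here, controls included, thus carried the construct. MoFlo-sorted single cells were sequenced with RamDA-seq, a full-length total RNA method, at 0 h (n = 92 cells), 12 h (91), 24 h (93), 48 h (87) and 72 h (93) of dexamethasone, and in undifferentiated ES cells sorted at G1 phase (93), S phase (91) and G2/M phase (93). Another 4 plates, B1, B2, E1 and E2, each held PrE cells (38, 47, 56 and 54) beside ES cells (58, 49, 40 and 42), and a C1 microfluidic run held 39 PrE cells and 16 ES cells. Libraries made from ES cell RNA were rdRNA-seq (rRNA-depleted) and paRNA-seq (poly(A)-selected) from 1 µg (n = 3 each), and RamDA-seq (n = 3) and SMART-Seq v4 (n = 4) from 10 pg.

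Each time and each phase was a single sorted set of cells, so time or phase cannot be told apart from the preparation, and no test was made across cells. Tests were made on the 4 plates and on the RNA libraries; the sources used here tie none of these plates and libraries to a culture of its own, so their p-values may measure only the spread between plates or libraries. The median cell had between 37768 and 41258 transcripts at 0.1 TPM or more in the time and phase sets and between 28508 and 29066 on the plates. TPM keep no depth. Of 384 plate wells, 22 were near-empty, with at most 206 such transcripts against at least 10616 in every other well. They lay in PrE B1 (1), B2 (5), E1 (1) and E2 (1) and in ES B1 (5), B2 (8) and E1 (1), and results are given with and without wells of few transcripts. Markers followed the labels on the plates: 10 of 11 PrE marker genes were higher in PrE cells (11 without those wells) and 7 of 8 pluripotency genes were lower, while none of 3 fibroblast markers reached a testable level.

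NMD is a surveillance pathway that degrades mRNAs on which a ribosome stops too early. During splicing an exon junction complex is left just upstream of each junction, and a stop codon lying well before the last junction leaves such a complex on the mRNA, where UPF1, with the SMG kinase complex, UPF2 and UPF3, can trigger decay. Cells also use the pathway for control: many genes of splicing factors and ribosomal proteins include poison exons, retained introns or introns in the 3' untranslated region that turn part of their own output into NMD substrates. A steady-state level is set by synthesis and decay together, and none of the samples had NMD blocked, so levels and shares below describe what was present and not how fast it decayed.

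In the gene models, 2222 of the 2261 members with an annotated stop codon had it at least 50 bases before the last exon-exon junction (98.3%), at a median distance of 296 bases (quartiles 145 and 610). Among 4165 protein-coding transcripts of the same genes at the same threshold, 18 of 3049 with a stop codon did (0.590%). Members were shorter (median 844 bases, against 1761 bases for those protein-coding transcripts), and 877 (38.8%) were incomplete models, against 36.4%. The 2262 members lay in 1663 host genes, 1219 with 1 member and 444 with more, up to 8 in Qars, the glutaminyl-tRNA synthetase gene. Exons of 458 members overlapped exons of another gene, 354 of them on the opposite strand, and since reads of single cells were quantified without strand these members are uncertain. Another 4 had the same TPM as another transcript of their gene in every cell.

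Few members shared their annotated stop codon with a protein-coding transcript of the same gene. These were 116 (5.13%), and 2145 (94.9%) did not. Stops shared with other kinds of transcript, such as another member of the gene, were not counted. Usage, the share of the gene's summed TPM that fell to the member, had a median of 12.7% at 0 h among members with a shared stop and 11.2% among the others. On the plates 2 and 6 of 79 tested members with a shared stop were higher and lower in PrE cells, against 93 and 105 of 1656 others, so both kinds moved in both directions. For 2210 members (97.7%) the same transcript with the same exons was found in GENCODE vM21, and its sequence gave TGA at 1289 stops (58.3%), TAA at 503 (22.8%) and TAG at 418 (18.9%). Among 2914 matched protein-coding transcripts TGA stood at 50.1%, TAA at 26.05% and TAG at 23.9%.

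The 30 bases around the annotated stop codon are printed below for the members on which the results turn, 5′ to 3′ along the transcript, from GENCODE vM21 transcript sequences, with the stop codon in capitals and its GRCm38 position and strand. The lines first give 4 members whose usage differed between PrE and ES cells, then 2 of SR splicing factors, 3 of ribosomal proteins and 1 whose usage differed between the phase sets. Stops shared with a protein-coding transcript are those of Kxd1-008, Srsf2-003 and Srsf6-002.
Rbmx-001, exon 9 of 10, 84 bases before the last junction, chrX:57385217-57385219 (−): gagagttatggtTGAatctaatggtcatac
Kxd1-008, exon 5 of 6, 110 bases before the last junction, chr8:70514705-70514707 (−): gacctcactctgTAGacctggccttaaact
Ube2k-004, exon 3 of 6, 295 bases before the last junction, chr5:65581400-65581402 (+): ccggtttatcacTAAaatatggcaccctaa
Erp29-003, exon 2 of 3, 390 bases before the last junction, chr5:121432955-121432957 (−): cagaggcccctcTAGaggacaacagtctga
Srsf2-003, exon 1 of 3, 113 bases before the last junction, chr11:116852028-116852030 (−): gcagtttcttccTAAgaaaatgatgaatcg
Srsf6-002, exon 3 of 7, 534 bases before the last junction, chr2:162932964-162932966 (+): gccttttgccatTAGacgcagggtgatggt
Rpl3-006, exon 4 of 5, 138 bases before the last junction, chr15:80081034-80081036 (−): gtgctctgctccTGAaggcacaagtctaag
Rpl9-011, exon 3 of 4, 109 bases before the last junction, chr5:65388671-65388673 (−): acgctgctgcccTGAttcagcaagccacaa
Rpl12-002, exon 3 of 7, 358 bases before the last junction, chr2:32962594-32962596 (+): gaaagttggcgaTGAcattgccaaggctac
Cdca2-005, exon 3 of 4, 66 bases before the last junction, chr14:67694908-67694910 (−): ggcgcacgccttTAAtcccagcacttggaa
Wiz-003 on chromosome 17, Srsf3-002 and Tra2b-003 are named without a sequence.

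Members made up a small and steady part of the transcriptome. Together they took 1.36, 1.38, 1.55, 1.499 and 1.36% of all TPM at 0, 12, 24, 48 and 72 h, and 1.29, 1.40 and 1.40% at G1, S and G2/M phase. Of the TPM of their own host genes they took 17.9, 18.6, 18.3, 18.7 and 18.8% over the times and 17.6, 17.1 and 17.6% over the phases. The median member was detected at 0.1 TPM or more in 66.3% of the cells at 0 h and held 11.3% of its gene (quartiles 5.72 and 21.5%, 2260 members with any gene TPM). The most abundant at 0 h were Hsp90ab1-007 at 543 TPM, 18.2% of this cytosolic chaperone gene, Rpl9-011 at 281 TPM (47.8%), Rpl6-008 at 259 TPM (21.6%), Eef1b2-004 at 235 TPM (26.4%), from a translation elongation factor gene, and Slc2a3-007 at 157 TPM (35.7%), from a glucose transporter gene. These 5 made up 10.9% of the members' summed TPM.

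In a few genes the member was the main form. Among the 1790 members whose gene had at least 10 TPM at 0 h, 42 (2.35%) took at least 50% of it, and the 10 highest are named here. Commd2-002, from a COMM-domain gene, held 85.1, 85.7, 86.8, 87.7 and 84.8% of its gene at 0, 12, 24, 48 and 72 h. Ndufa3-006, from a gene of a respiratory complex I subunit, held 79.2, 78.0, 80.7, 79.3 and 79.1% over the same times, with 99.0 TPM at 0 h. Both usages stayed within a few points over the whole course. Dirc2-002 (84.6% at 0 h), Mrps14-003 (77.1%), Hddc3-007 (71.7%) and Pik3cb-002 (69.9%) stood between 64.2 and 85.5% at every time. On the plates Hddc3-007 was lower in PrE cells (63.6, 64.3, 63.2 and 65.9%, against 77.4, 70.0, 73.2 and 71.9% in ES cells, limma adjusted p = 0.0248, and 0.0501 with the plate as a block), a call lost without B1 (−0.45), B2 (−0.62), E1 (−0.53) or E2 (−0.61) and from usage within cells (−0.48). Cmc2-003, from a gene for assembly of respiratory complex IV, held 72.1% at 0 h and 58.1, 52.6, 52.6 and 56.4% at the later times. Gm20716-001 at 100% and Gm20537-002 at 82.9% belonged to gene models that overlap Adnp and Dpm1, and Snx14 and Syncrip, on the same strand. Ccdc7b-006 held 98.4% at 0 h of a gene at 15.2 TPM, and 43.0% at 72 h, when the gene stood at 0.51 TPM.

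On the plates the summed share overlapped between the cell types with all wells kept, and was higher in PrE cells without wells of few transcripts. Members took 1.63, 1.56, 1.75 and 1.65% of all TPM in PrE cells of plates B1, B2, E1 and E2, against 1.56, 1.43, 1.59 and 1.41% in ES cells. Of their host genes' TPM they took 19.4, 17.4, 19.7 and 20.5% in PrE cells, against 19.9, 17.2, 19.2 and 18.8% in ES cells, and these ranges overlapped. Without wells of few transcripts the host gene shares were 20.3, 19.9, 20.2 and 20.3% in PrE cells, against 18.6, 18.4, 18.6 and 18.8% in ES cells, and no longer overlapped. In the C1 run the share of all TPM was 2.10% in PrE cells and 1.96% in ES cells.

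Over the time course most members kept their share of the gene. Usage was compared on the scale log2((T + 1)/(G − T + 1)), with T the mean TPM of the member and G that of its gene, and a difference of at least 1 was counted. Of 1814 members that averaged at least 1 TPM over the 5 times, in genes of at least 5 TPM at each time, 18 were higher by that much at 12 h than at 0 h (over all 26334 transcripts 0.714% were) and 5 lower (0.543%). At 24 h 10 were higher (0.813%) and 20 lower (1.35%), at 48 h 23 were higher (1.67%) and 47 lower (2.98%), and at 72 h 31 were higher (2.04%) and 43 lower (2.63%). The share of members past this size was 1.71% higher and 2.37% lower at 72 h, against 2.04 and 2.63% over all transcripts, a contrast that also chose the members. The SD of the differences over the members was 0.33, 0.35, 0.45 and 0.46 at 12, 24, 48 and 72 h. Over a common set of 1929 members the 3 phase sets, all undifferentiated ES cells, differed from the 0 h set by an SD of 0.32, 0.36 and 0.33 at G1, S and G2/M phase, against 0.34, 0.35, 0.45 and 0.47 at 12, 24, 48 and 72 h. The 12 h and 24 h sets thus differed from 0 h no more widely than some ES cell sets did, and the 48 h and 72 h sets differed more widely. Levels at 0 h and 72 h chose the members and those of the phase sets did not, so this comparison is a description.

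The members described next had the largest differences in usage between 72 h and 0 h, the contrast that also chose the members. Rbmx encodes an RNA-binding protein of the hnRNP G family that acts in splicing. Rbmx-001 held 64.1, 55.1, 52.1, 29.9 and 24.7% of its gene at 0, 12, 24, 48 and 72 h. Its own level stood at 3.48 TPM at 0 h and 2.64 TPM at 72 h (SD over cells 3.23 and 2.39), while the gene stood at 5.43 and 10.7 TPM, so the other transcripts of Rbmx made up the gain. It was detected in 88.0% of cells at 0 h (exact 95% interval 79.6 to 93.9%) and in 78.5% at 72 h (68.8 to 86.3%); these intervals cover counting error only. Kxd1 encodes a subunit of the BORC complex, which positions lysosomes. Kxd1-008 held 6.42, 12.1, 27.1, 27.9 and 35.1% over the same times, at 2.07 TPM at 0 h and 7.04 TPM at 72 h, and was detected in 59.8% of cells at 0 h (49.0 to 69.9%) and in 94.6% at 72 h (87.9 to 98.2%). Here the member itself was higher at the late times and the gene lower, at 32.3 TPM at 0 h and 20.1 TPM at 72 h.

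Wiz, a zinc-finger partner of the histone methyltransferases G9a and GLP, gave the reverse case. Wiz-003 held 2.81, 4.66, 8.46, 15.4 and 22.97% of its gene, but at 1.60, 1.92, 2.02, 1.99 and 2.40 TPM its own level moved little, and it was detected in 82.6% of cells at 0 h and 82.8% at 72 h. The gene stood at 57.1, 41.2, 23.8, 12.9 and 10.5 TPM, so the share followed the loss of the other Wiz transcripts. Erp29, an endoplasmic reticulum chaperone gene, was the mirror image: Erp29-003 held 6.24, 6.17, 2.91, 0.98 and 0.86% while the gene stood at 34.6 TPM at 0 h and 212 TPM at 72 h and the member at 2.16 and 1.82 TPM. Its exons overlap Naa25 and Tmem116 on the opposite strand.

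Phc2-010, from a gene of Polycomb repressive complex 1, held 19.4, 14.6, 10.6, 9.17 and 8.06% over the times. Pop4-003, from an RNase P subunit gene, held 16.4, 13.4, 7.19, 5.23 and 2.68% while its gene stood at 16.8 TPM at 0 h and 25.02 TPM at 72 h. Amotl2-003, from an angiomotin gene of the Hippo pathway, held 5.53, 3.29, 3.07, 1.34 and 1.47%. All 3 stood lowest at 48 or 72 h. Serf2-006, whose exons overlap Hypk on the same strand, held 13.6, 23.8, 4.45, 3.68 and 1.63% on the time course but at most 0.80% on any plate; the plates used another library protocol, and its part in this was not tested. The other members named by the rule lay at low shares: Fn1-016, Fn1-017, Jarid2-008, Nedd4-007, Usp7-003, Anp32e-005 and Fam60a-012 among those that gained, at no more than 5.70% at any time, Phc1-002 at up to 11.7%, and Igf2r-004, Plaur-005, Tram1-003, Cr1l-008 and Rnf181-005 among those that lost, at no more than 12.9%.

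**Figure D1:**
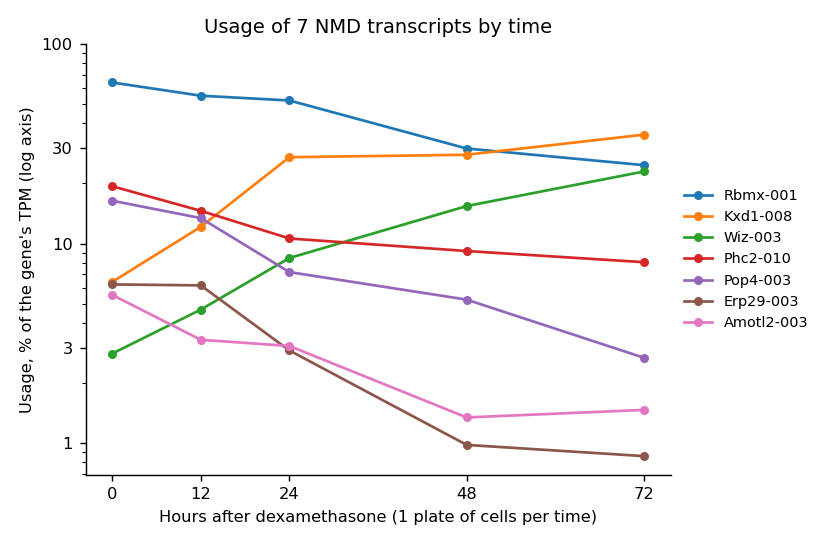
Usage (percent of the gene's mean TPM, vertical axis) of 7 members at 0, 12, 24, 48 and 72 h of dexamethasone (horizontal axis); each point is the mean over 87 to 93 cells of 1 sorted set. Rbmx-001 stood at 64.1% at 0 h and 24.7% at 72 h, Kxd1-008 at 6.42 and 35.1%, and Wiz-003 at 2.81 and 22.97%, while Phc2-010, Pop4-003, Erp29-003 and Amotl2-003 were lower at 72 h than at 0 h.

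The 4 plates, which the rule did not use, gave a replicated test of usage in PrE cells against ES cells (limma, Benjamini-Hochberg adjusted over all transcripts tested). Of 1736 members that could be tested, 95 were higher in PrE cells (5.47%, against 5.99% of 27279 transcripts tested) and 111 were lower (6.39%, against 8.84%); 526 members did not pass the filter on low levels of member or gene. Both shares lay at or under those of all transcripts. Plate values did not overlap between the cell types for 310 of the 1736 members (17.9%, against 22.2% of all transcripts). Without wells of few transcripts 130 of 1766 were higher (7.36%, against 8.56%) and 143 lower (8.10%, against 12.0%), and 93 and 108 of the calls were made again. The count rests on all 4 plates: it was 126 without B1, 121 without B2, 103 without E1 and 103 without E2, against 206. The median difference was 0.01 over members and −0.03 over all transcripts.

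Usage is a ratio, and in most called members the host gene had moved. Of the 95 members higher in usage, the host gene was lower in PrE cells in 53, higher in 22 and not called in 20, and of the 111 lower in usage it was higher in 81, lower in 12 and not called in 18. The same held for all transcripts, where 48.3% of those higher in usage had a host gene that was lower and 71.3% of those lower in usage had one that was higher. The members' own levels moved in both directions, being higher in 40 and lower in 26 of the 95, and higher in 40 and lower in 25 of the 111. As a class, 601 of 1904 members were higher in level in PrE cells (31.6%, against 30% of 38573 transcripts) and 253 were lower (13.3%, against 19.1%). Of 1660 tested host genes 701 were higher (42.2%, against 34.7% of all genes) and 381 lower (22.95%, against 24.4%), and without wells of few transcripts 741 were higher (background 36%) and 482 lower (29%). Members had to reach 1 TPM at 0 h or 72 h, 354 of them only at 72 h and 246 only at 0 h. The background transcripts and genes were not chosen by these times, so the shares in level of members and host genes are a description.

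The added 1 TPM matters for low members. Mean usage went against the fitted difference in 5 of the 95 and 2 of the 111 calls, and with 0.1 TPM added in place of 1 TPM, 45 and 60 of them were called in the same direction. Tcl1-005, from a gene of an Akt coactivator, is the named case: it held 0, 0, 1.72 and 1.09% in PrE cells, against 3.59, 5.30, 3.98 and 4.00% in ES cells, although the fitted difference was 1.63 and with 0.1 TPM it was −0.82.

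**Figure D2:**
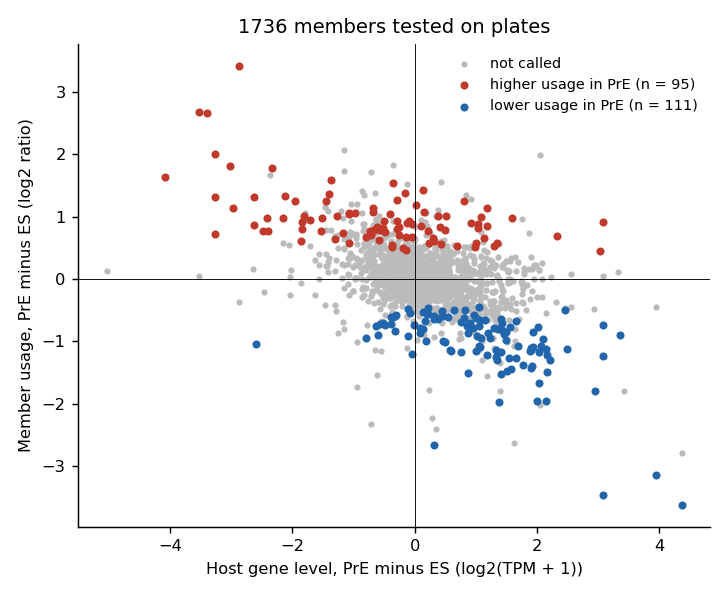
Difference in member usage between PrE and ES cells (PrE minus ES, log2((T + 1)/(G − T + 1)), vertical axis) against the difference in host gene level (PrE minus ES, log2, horizontal axis), 1 point per tested member, with called members coloured. Of the 95 higher calls 53 had a host gene that was lower in PrE cells, and of the 111 lower calls 81 had one that was higher; the gene level enters both axes.

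Rbmx-001 was lower in share and in level in PrE cells, while its gene was higher by a smaller amount. It held 20.7, 22.2, 21.8 and 22.5% of Rbmx in PrE cells of plates B1, B2, E1 and E2, against 71.5, 73.5, 68.4 and 74.6% in ES cells, and no plates overlapped. The difference was −2.66 (SE 0.12, adjusted p = 6.12e-06). Its own level was lower in PrE cells by 1.12 on the log2 scale, at 2.90, 3.16, 3.18 and 2.35 TPM in PrE cells, against 7.81, 7.87, 7.19 and 6.997 TPM in ES cells. The gene level differed by 0.32, with adjusted p = 0.037, and 0.093 without wells of few transcripts. In the C1 run, which allows no test, usage was 9.83% in PrE cells and 44.7% in ES cells.

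Kxd1-008 and Ube2k-004 rose in share and in level. Kxd1-008 held 19.97, 23.4, 27.4 and 24.9% in PrE cells, against 7.64, 6.92, 9.75 and 8.44% in ES cells, with no overlap (difference 1.53, SE 0.15, adjusted p = 4.27e-04), and its gene was lower by 0.35 on the log2 scale. The C1 values were 33.5% in PrE cells and 2.41% in ES cells. Ube2k, which encodes a ubiquitin-conjugating enzyme, was not called as a gene (difference 0.14, adjusted p = 0.513). Ube2k-004 held 20.5, 27.2, 25.4 and 22.3% in PrE cells, against 9.19, 6.06, 13.6 and 6.76% in ES cells (difference 1.43, SE 0.22, adjusted p = 0.0037), and its own level was higher by 1.32. Its level of usage depended on the set: 41.1, 48.6, 46.9, 55.6 and 44.3% over the time course, and 48.0% in PrE cells and 32.9% in ES cells of the C1 run. The plates were made with a changed library protocol.

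Wiz-003 and Erp29-003 were the cases in which the gene moved and the member hardly did. Wiz-003 held 14.3, 19.5, 15.5 and 13.5% in PrE cells, against 1.55, 1.38, 1.00 and 1.84% in ES cells (difference 3.41, SE 0.18, adjusted p = 1.46e-05). Wiz as a gene was lower by 2.88, and the member's own level differed by 0.33 (adjusted p = 0.0865). Erp29-003 held 0.79, 0.72, 0.68 and 0.69% in PrE cells, against 8.72, 8.89, 7.96 and 7.95% in ES cells (difference −3.47, SE 0.14, adjusted p = 3.84e-06), with the gene higher by 3.07 and the member lower by 0.28. The C1 usages were 24.7% in PrE cells and 2.96% in ES cells for Wiz-003, and 0.46% in PrE cells and 3.18% in ES cells for Erp29-003.

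The other members named by size were of genes that changed strongly with differentiation. Higher in usage beside a lower gene were members of Bcam, a laminin receptor, Fn1, fibronectin, Tet1, which oxidises 5-methylcytosine, Alg13, of N-glycan synthesis, Cenpv, and Mcm2, of the replicative helicase, with gene differences between −1.37 (Mcm2) and −3.53 (Fn1). Bcam-004 held 13.8, 9.69, 13.2 and 14.6% in PrE cells, against 2.17, 1.66, 2.35 and 7.55% in ES cells. Mean usage overlapped between the cell types for Fn1-016, Alg13-002 and Cenpv-006, and the calls of Fn1-016, Alg13-002, Tet1-003, Cenpv-006 and Mcm2-004 were lost with 0.1 TPM added. From usage averaged within cells the calls of Alg13-002 (difference 0.25), Cenpv-006 (0.85) and Tet1-003 (0.77) were lost too. The call of Tet1-003 was also lost without E1 (1.97) or E2 (1.98), and that of Mcm2-004 without any single plate, at 1.56 without B1, 1.17 without B2, 1.77 without E1 and 1.86 without E2. Lower in usage beside a higher gene were members of P4ha2, a collagen prolyl hydroxylase, Frmd4a, Nfxl1, Atg16l2, Txndc11, Pqlc2, a lysosomal amino acid exporter, Ggcx, the vitamin K-dependent carboxylase, and Cyp20a1, with gene differences between 1.38 (Cyp20a1) and 4.36 (P4ha2). Cyp20a1-003 held 9.12, 7.39, 7.96 and 14.1% in PrE cells, against 35.6, 33.6, 38.1 and 28.01% in ES cells. P4ha2-007 held 2.70, 3.34, 1.89 and 2.19% in PrE cells, against 10.8, 39.3, 7.67 and 12.3% in ES cells, the 39.3% standing at 8.36% without wells of few transcripts. It did not pass the filter on low levels without those wells or without plate B2 and has no test there. Frmd4a-019 and Atg16l2-017 overlap Gm13179 and Fchsd2 on the opposite strand.

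**Figure D3:**
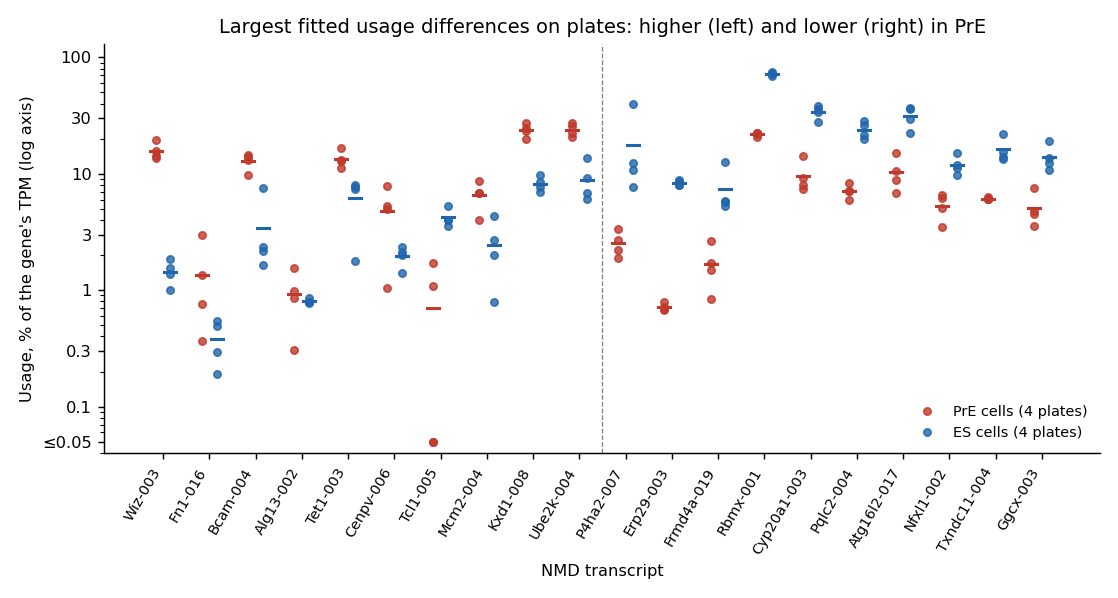
Usage (percent of the gene's TPM, log axis, values under 0.05% drawn at 0.05%) of the 20 members with the largest differences, 10 in each direction, 1 point per plate and a line at the mean, with PrE cells left and ES cells right. Rbmx-001 lay between 20.7 and 22.5% in PrE cells and between 68.4 and 74.6% in ES cells, and Wiz-003 between 13.5 and 19.5% in PrE cells and between 1.00 and 1.84% in ES cells.

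For 25 called members, 10 higher and 15 lower, the host gene was not called with or without wells of few transcripts. The examples given were chosen after their values were seen. Rragc encodes a Rag GTPase that signals amino acids to mTORC1. Rragc-002, which overlaps 4930535I16Rik on the opposite strand, held 9.46, 10.8, 7.68 and 8.96% in PrE cells, against 19.4, 20.2, 23.3 and 20.3% in ES cells (difference −1.21, SE 0.14, adjusted p = 9.70e-04). Its C1 values went the other way, at 5.88% in PrE cells and 4.19% in ES cells. Zfp451-002, from a SUMO ligase gene, held 18.9, 17.4, 20.4 and 19.5% in PrE cells, against 31.1, 30.4, 28.1 and 26.96% in ES cells (difference −0.67, SE 0.12, adjusted p = 0.00582), and 27.7% in PrE cells and 38.6% in ES cells of the C1 run. Tsc22d1-010, from a leucine zipper gene, held 3.69, 4.14, 4.88 and 4.66% in PrE cells, against 1.33, 1.39, 1.60 and 1.96% in ES cells (difference 1.18, SE 0.17, adjusted p = 0.00231), and 5.90% in PrE cells and 1.95% in ES cells of the C1 run. These shifts lay within genes whose own level was not called, which does not show that it was even.

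The plates were set beside the other differentiation data by size. Of the 95 members higher on the plates 19 were higher by at least 1 at 72 h than at 0 h and none lower, and of the 111 lower 30 were lower and none higher. These were 20% and 27.03%, against 25.7% of the 1633 transcripts higher on the plates and 23.7% of the 2411 lower. In the C1 run 23 of the 95 were higher by that much in PrE cells and none lower, and 36 of the 111 were lower and 1 higher. These were 24.2% and 32.4% in the same direction, against 32.7% and 32.3% over all transcripts called on the plates. The 72 h and 0 h levels chose the members, so the counts at these times are a description.

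SR proteins bind exons and promote their splicing, and SR genes are known for poison-exon transcripts that limit their own protein. The list of 14 SR genes held 11 members in 9 genes, with 5.19 to 45.6% of the gene at 0 h. Of the 11, 2 were higher in usage in PrE cells and none lower (background 5.99% and 8.84%), with a median difference of 0.19, and without wells of few transcripts 2 were higher and 1 lower, with a median of 0.08. Srsf3-002 held 2.25, 2.65, 2.77 and 2.79% in PrE cells, against 0.99, 1.64, 1.83 and 1.33% in ES cells (adjusted p = 0.0201), a call lost without B2 (difference 0.88), E1 (0.90) or E2 (0.78) and with 0.1 TPM added (0.89). Tra2b-003 held 22.99, 13.4, 16.3 and 23.2% in PrE cells, against 12.7, 10.0, 8.54 and 10.8% in ES cells (adjusted p = 0.0325), a call lost without B1 (0.87), E1 (0.87) or E2 (0.79). Neither pair of groups overlapped. As genes, 1 of 12 tested SR genes was higher in PrE cells and 6 were lower (over all genes 34.7% were higher and 24.4% lower). Without wells of few transcripts 1 was higher and 7 were lower (over all genes 36% and 29%).

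Other SR members stood close to the threshold or held a steady share. Srsf6-002 held 40.9, 49.3, 37.8 and 47.4% in PrE cells, against 35.2, 35.99, 26.02 and 38.2% in ES cells (adjusted p = 0.0961, and 0.0332 with the plate as a block). Tra2a-002 held 17.9, 11.1, 15.4 and 14.3% in PrE cells, against 29.1, 24.99, 23.9 and 18.3% in ES cells (adjusted p = 0.0539, 0.0499 with the plate as a block, and 0.0272 without wells of few transcripts). Srsf2-003, at 91.6 TPM and 34.4% of its gene the most abundant SR member at 0 h, was not called, with 27.4, 25.6, 40.6 and 31.6% in PrE cells, against 26.9, 13.3, 43.7 and 35.8% in ES cells. Its plates differed more among themselves than the cell types did, and its exons overlap Mettl23 on the opposite strand. Srsf1-002, Srsf4-003, Srsf4-004, Srsf5-010, Srsf11-006 and Srsf11-009 were not called either.

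hnRNP genes encode RNA-binding proteins that often oppose SR proteins. Their list of 20 genes held 10 members in 7 genes, of which 8 were tested, 2 were higher and none lower (background 5.99% and 8.84%). Hnrnpdl-002 held 4.08, 4.13, 2.52 and 3.36% in PrE cells, against 1.84, 1.42, 1.13 and 1.19% in ES cells (difference 1.13, SE 0.21, adjusted p = 0.00799), a call lost without E2 (1.09). Hnrnpd-010 held 4.93, 5.33, 4.09 and 4.61% in PrE cells, against 3.72, 2.78, 3.04 and 3.42% in ES cells (adjusted p = 0.0446, and 0.0744 with the plate as a block), and without B1 (0.59), B2 (0.43), E1 (0.58) or E2 (0.58) it was not called. Nor was it called with the filter at 5 TPM (0.55), from usage within cells (0.45) or with 0.1 TPM added (0.57). Hnrnpll-005 held 43.1% of its gene at 0 h and was not called. Among 27 other splicing and RNA-binding genes with 40 members, 31 were tested, Son-005, Tial1-010 and Tial1-012 were higher and Ddx5-002 was lower, against the same background. Without wells of few transcripts 3 of 30 tested members were higher and 2 lower (over all transcripts 8.56% and 12.0%). The call of Son-005 (difference 1.07) was lost without E1 (1.05), and that of Tial1-012 (0.79) without B1 (0.77), B2 (0.68) or E1 (0.86). The call of Tial1-010 (0.93) was lost without B1 (0.85), B2 (0.84) or E1 (1.01), from usage within cells (1.04) and with 0.1 TPM added (1.19). Ddx5 encodes an RNA helicase, and Ddx5-002 held 24.6, 23.5, 24.7 and 22.4% in PrE cells, against 33.2, 32.1, 34.8 and 29.8% in ES cells (adjusted p = 0.00915), a call lost without B2 (−0.61) or E1 (−0.59). Its exons overlap Mir3064 and Gm25994.

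Ribosomal protein genes include known cases, such as Rpl3 and Rpl12, in which excess protein steers splicing to an NMD transcript. Of 103 such genes 11 had 1 member each, all tested. Rpl12-002 held 55.1, 47.3, 44.9 and 41.3% in PrE cells, against 35.5, 40.3, 32.8 and 34.4% in ES cells (difference 0.66, adjusted p = 0.04). On the time course it held 20.6, 23.2, 20.5, 27.9 and 34.4%. Its call was lost without B1 (0.52), B2 (0.75), E1 (0.65) or E2 (0.74), from usage within cells (0.53) and with 0.1 TPM added (0.68). Rpl22l1-006 was higher too (adjusted p = 0.0268, and 0.0582 with the plate as a block), a call lost without B1 (1.30), E1 (1.16) or E2 (1.12), from usage within cells (1.195) and with 0.1 TPM added (1.17). Rpl27a-003 was lower, at 8.10, 6.50, 6.82 and 6.24% in PrE cells, against 13.02, 12.7, 11.1 and 11.4% in ES cells (difference −0.74, adjusted p = 0.00676).

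Rpl3-006 was not called (difference 0.02, adjusted p = 0.958), with 12.1, 9.45, 10.3 and 11.3% in PrE cells, against 13.6, 12.5, 9.69 and 8.49% in ES cells. Whether this member is the known autoregulated form of Rpl3 was not tested. Rpl9-011 held 51.5, 50.4, 52.8 and 64.4% in PrE cells, against 51.5, 52.8, 54.4 and 55.8% in ES cells, and was not called either. As genes, none of 95 tested ribosomal protein genes was higher in PrE cells and 61 were lower (over all genes 34.7% and 24.4%), with a median difference of −0.50, and without wells of few transcripts 1 was higher and 78 were lower (36% and 29%). Of their 11 members 2 were higher in usage and 1 lower.

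**Figure D4:**
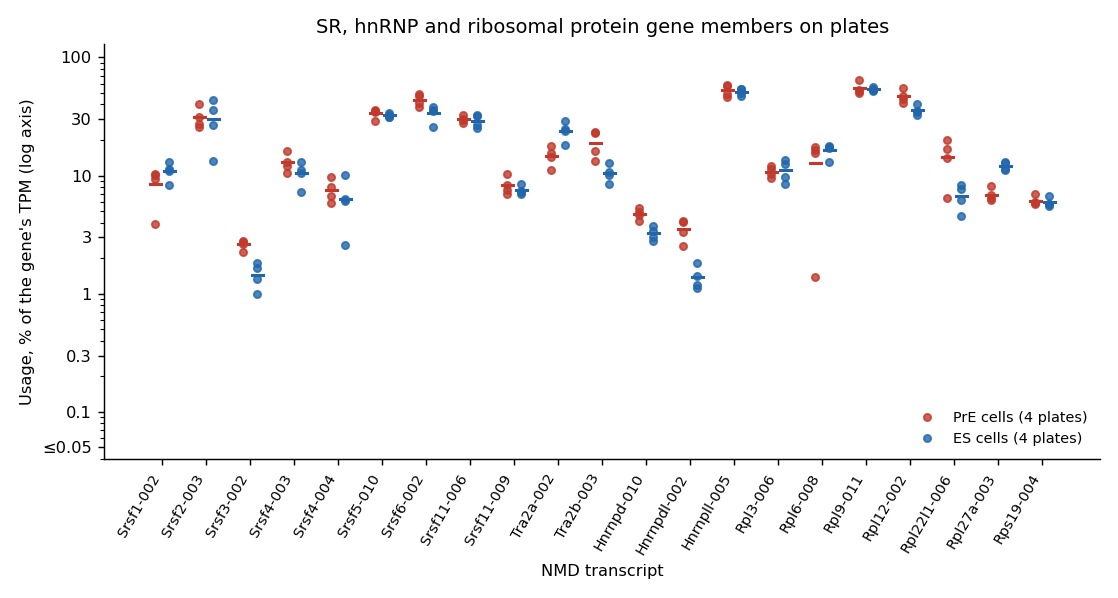
Usage (percent of the gene's TPM, log axis, values under 0.05% drawn at 0.05%) of 21 members of SR, hnRNP and ribosomal protein genes, 1 point per plate and a line at the mean, PrE cells left and ES cells right of each pair. Tra2b-003 lay between 13.4 and 23.2% in PrE cells and between 8.54 and 12.7% in ES cells, and Rpl27a-003 between 6.24 and 8.10% in PrE cells and between 11.1 and 13.02% in ES cells, while the cell types overlapped for Srsf2-003, Rpl3-006 and Rpl9-011.

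Genes of the NMD machinery did not move in 1 direction. Of 15 tested genes of NMD factors, 3 were higher in PrE cells and 3 lower (over all genes 34.7% and 24.4%), with a median difference of −0.03. Without wells of few transcripts 3 were higher and 4 lower (over all genes 36% and 29%), with a median difference of 0.009. Upf1, the central helicase, stood at 28.6, 23.9, 27.02 and 27.4 TPM in PrE cells, against 25.5, 23.6, 27.1 and 26.8 TPM in ES cells (adjusted p = 0.621). Nbas was higher by 1.18 (adjusted p = 4.69e-04), Upf3a by 0.43 (0.0105) and Dhx34 by 0.34 (0.0188). Among the lower genes, Etf1, the release factor, fell by 0.42 (0.0386) and Upf3b by 0.39 (0.0423). None of the 5 tested exon junction complex genes was called (Casc3 was higher without wells of few transcripts, by 0.47). NMD factor genes are themselves known targets, and 2 had a member: Smg5-008, at 7.77% of its gene at 0 h, and Smg1-005, at 17.4%, neither called on the plates. On ES plate B1 Smg1-005 stood at 35.3%, and at 1.48% without wells of few transcripts (other ES plates 0.95 to 2.97%). Without those wells only 1 of these 2 members passed the filter on low levels, so the other has no test there.

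Of 7 mRNAs known from other work to be NMD-sensitive, 3 were higher in PrE cells and 3 lower as genes, against the same background. Atf3 (difference 2.72), Ddit3 (0.78) and Gadd45b (0.85) rose, Trib3 (−2.53), Gas5 (−1.27) and Gadd45a (−0.48) fell, and Atf4 was not called (0.06). Atf3 and Ddit3 encode stress-response transcription factors, and Gas5 is a small nucleolar RNA host gene.

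Few members differed in usage by this size between the phase sets. Of 1853 members, filtered in the same way over the 3 phases, none was higher by at least 1 at G2/M than at G1 phase (background 0.0749%) and 7 were lower (0.341%), and at S phase against G1 phase 1 was higher (0.0817%) and 8 lower (0.276%). Cdca2 encodes Repo-Man, which targets a phosphatase to chromatin at the end of mitosis. Cdca2-005 held 61.9, 43.7 and 29.5% of the gene at G1, S and G2/M phase, at 11.4, 13.8 and 18.6 TPM, while the gene stood at 18.4, 31.6 and 62.9 TPM. The member thus gained less than the rest of its gene. In 9 wells of averaged G1 lysate, technical repeats of a common G1 cell pool, it held 50.3 to 96.0% (median 76.6%). This range of single wells lay above the S and G2/M values, which come from means over cells. No such wells stood beside the S and G2/M sets, so their technical spread is not known. On the plates, with mixed phases, Cdca2-005 was lower in PrE cells (40.3, 37.7, 35.001 and 41.8%, against 53.6, 52.9, 53.9 and 51.0% in ES cells, difference −0.76, SE 0.12, adjusted p = 0.00418), with its gene lower by 0.63.

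Plk1 and Cdc20, both mitotic regulators, were among the fixed G2/M marker genes. Plk1-002 held 6.23, 5.31 and 1.40% at G1, S and G2/M phase, at 1.28, 1.48 and 1.84 TPM, while Plk1 stood at 20.6, 27.9 and 131 TPM. Cdc20-003 instead kept its share, at 37.6, 40.6 and 40.4%, while Cdc20 stood at 90.6, 69.3 and 241 TPM, so this member gained in step with its gene. Cenpf-003, from a kinetochore gene, held 10.96, 8.71 and 7.97%, Ect2-003, from a cytokinesis gene, 3.38, 4.11 and 1.76%, and Mtf2-005, from a Polycomb gene, 5.54, 2.25 and 2.64%, the last with exons that overlap Tmed5 on the opposite strand. The largest gains at G2/M phase, in Ung-004, Fam53a-003, Uspl1-005, Icmt-002 and Vps29-003, were between 0.73 and 0.96.

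**Figure D5:**
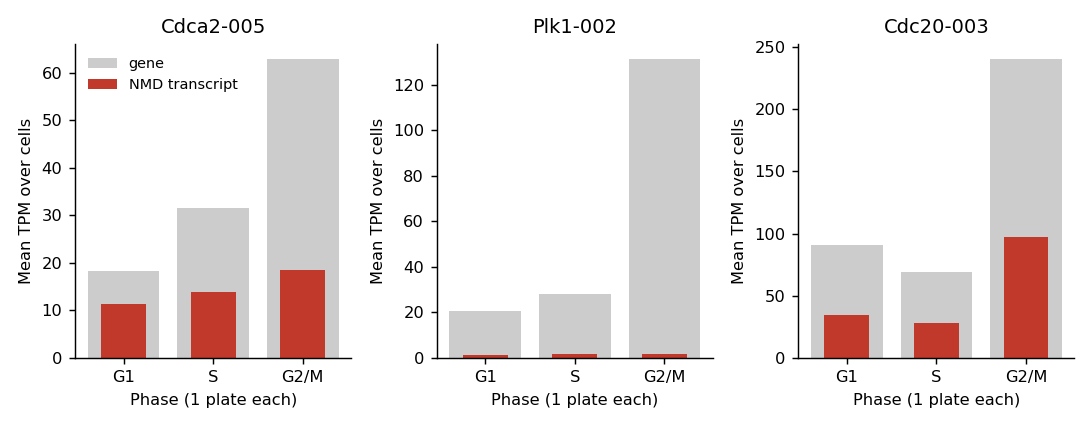
Mean TPM of the gene (grey bars) and of its member (red bars) at G1, S and G2/M phase for Cdca2-005, Plk1-002 and Cdc20-003, each bar the mean over 91 to 93 cells of 1 sorted set. Cdca2-005 stood at 11.4, 13.8 and 18.6 TPM beside a gene at 18.4, 31.6 and 62.9 TPM, and Plk1-002 at 1.28, 1.48 and 1.84 TPM beside a gene at 20.6, 27.9 and 131 TPM.

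Usage was also compared between ways of making a library. In ES cell RNA at 1 µg, 28 of 1119 tested members were higher in rdRNA-seq than in paRNA-seq (2.50%, against 4.48% of 17707 transcripts) and 21 were lower (1.88%, against 3.29%). Srsf2-003 held 48.1, 41.3 and 46.7% in rdRNA-seq, against 29.1, 24.1 and 21.01% in paRNA-seq (difference 1.34, adjusted p = 0.0353), and Srsf4-003, Srsf5-010, Rpl9-011 and Hnrnpd-012 were higher as well. Rpl3-006 held 3.20, 3.89 and 2.36% in rdRNA-seq, against 15.3, 11.4 and 14.4% in paRNA-seq (difference −2.17, adjusted p = 0.0215), and Rps19-004, Hsp90ab1-007, Ptbp1-017 and Rbm39-002 were lower as well. Etv5-005 stood at 0, 0 and 0.0052% in rdRNA-seq, against 54.5, 59.7 and 55.1% in paRNA-seq. Members of splicing factor and of ribosomal protein genes were thus found on both sides. The count of 49 rests on every library, since it was 6, 8 and 4 without rdRNA-seq library 1, 2 and 3 and 25, 17 and 28 without paRNA-seq library 1, 2 and 3.

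At 10 pg, RamDA-seq and SMART-Seq v4 could be compared on estimated counts (edgeR exon-usage test applied to transcripts). Of 1284 members 14 were higher in RamDA-seq (1.09%, against 2.07% of 19833 transcripts) and 4 lower (0.312%, against 0.368%). Eef1b2-004 had counts of 816, 862 and 838 in RamDA-seq, 28.1 to 29.4% of its gene per length, against 0 in all 4 SMART-Seq v4 libraries (adjusted p = 1.95e-07). In the 1 µg libraries it held 27.4, 27.1 and 26.7% in rdRNA-seq and 39.7, 39.6 and 36.6% in paRNA-seq, so it was seen after poly(A) selection too. Ctnnb1-002, from the β-catenin gene, held 0.29, 1.00 and 1.01% in RamDA-seq, against 35.7, 28.6, 20.6 and 27.7% in SMART-Seq v4 (adjusted p = 0.0335). The count of 18 was 3, 1 and 2 without RamDA-seq library 1, 2 and 3, and 29 and 35 without SMART-Seq v4 library 3 and 4. On simulated libraries of these 2 kinds the test recovered 0% of 8-fold usage changes, so a missing call says little.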

How the data were processed

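The members and gene lists were chosen with earlier results of these data known. The authors quantified reads with Sailfish and deposited TPM per transcript. Those of single cells were made without strand (GENCODE vM9 with ERCC spike-ins, mm10). TPM of RNA libraries used merged gene models, and the estimated counts also deposited for these libraries used GENCODE vM9. The paper gives a setting without strand for RNA libraries made by single-cell methods. It gives a stranded one for bulk RNA-seq, where non-poly(A) RNAs were called. Which setting gave the bulk TPM used here is not stated. Overlaps with genes on the opposite strand may thus be unresolved in the library comparisons as well. Gene TPM were summed here over annotated transcripts, with assembled ones left out. Another 16 columns matched no sample and were not used.

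Plate means were tested with limma 3.58.1 in R 4.3.3 (trend, Benjamini-Hochberg over all transcripts with a gene of at least 5 TPM and a level of at least 1 TPM), as were rdRNA-seq and paRNA-seq libraries. The TPM used here held no SMART-Seq v4 columns, so this comparison used edgeR 4.0.16 on rounded estimated counts, which departs from the limma test planned for it. These counts summed to between 5713519 and 5741933 a library for RamDA-seq, 8875493 and 8921042 for SMART-Seq v4, 7395211 and 7502411 for rdRNA-seq and 8946715 and 8962910 for paRNA-seq. Figures were drawn with matplotlib 3.10.9, and tables were made in Python 3.11.15 (pandas 2.3.3, numpy 2.4.6) with intervals from scipy 1.17.1. Wells of few transcripts were those under the lower quartile less 1.5 interquartile ranges of their group.

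The labels place PrE and ES cells of a plate together. Deviations from the cell type means correlated by 0.12, 0.0297, 0.128 and 0.113 within plates B1, B2, E1 and E2, each above any other plate (0.277, 0.108, 0.242 and 0.215 without wells of few transcripts), and the plate as a block was an alternative. Others were another pseudocount, other filters, usage within cells, median TPM, another tool and each replicate left out. On simulated plates 25% of 2-fold and 75% of 4-fold usage changes were recovered, on simulated rdRNA-seq and paRNA-seq libraries 51% of 8-fold changes, and on simulated RamDA-seq and SMART-Seq v4 libraries at their own spread none of 8-fold changes and 3.06% of 64-fold changes.

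Named members were the 10 of highest usage at 0 h, the 10 largest changes in each direction at 72 h and on the plates, the 5 largest in each direction between G2/M and G1 phase, members of the gene lists, and those beside the threshold; others named were chosen after their values were seen. The values of 1 gene of the NMD factor list are not reported here.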

Additional observations from a re-analysis of the deposited data

Results flagged for a closer look

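Usage on 1 plate stood apart from the other 3 plates of its cell type in 11 of 124 groups of 4 plate values examined (Dixon's test), where chance alone flags about 1 in 20. In PrE cells these were Rpl6-008 on B2 at 1.38% (others 15.5 to 17.3%, and 13.1% without wells of few transcripts), Rps19-004 on B1 at 6.96% (5.80 to 5.96%), Tial1-010 on E2 at 13.2% (8.27 to 8.62%) and Txndc11-004 on E2 at 6.26% (6.02 to 6.06%). In ES cells they were P4ha2-007 on B2 at 39.3% (7.67 to 12.3%, and 8.36% without those wells), Smg1-005 on B1 at 35.3% (0.95 to 2.97%, and 1.48% without those wells), Frmd4a-019 on E2 at 12.7% (5.24 to 5.86%), Bcam-004 on E2 at 7.55% (1.66 to 2.35%), Tet1-003 on B1 at 1.79% (7.35 to 8.03%), Cmc2-003 on B2 at 49.6% (54.3 to 54.9%) and Alg13-002 on B1 at 0.85% (0.78 to 0.79%).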

How the results depend on the processing

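Of 206 plate usage calls the count was 273 without wells of few transcripts, 52 with a filter at 5 TPM, 169 from usage within cells, 483 with no filter, 123 with 0.1 TPM added, and between 103 and 126 with 1 plate left out. With the plate as a block it was 193, and level and gene calls were 930 and 1175. Level calls (854) were 332 at 5 TPM and 693 to 736 with 1 plate left out, and gene calls (1082) 946 to 1052. The 49 rdRNA-seq calls were 77 by edgeR (15 of them shared), 512 with no filter, 21 with 0.1 TPM added and between 4 and 28 with 1 library left out; with the replicate number, which only names libraries, as a block there was 1. The 18 SMART-Seq v4 calls were 3 at a mean count of 50, 50 by limma, 45 by limma with 0.1 TPM, 4 with no filter, 3 with the block and between 1 and 35 with 1 library left out. By median TPM the size counts were 151, 173, 237 and 278 at 12, 24, 48 and 72 h (main 23, 30, 70 and 74) and 113 at G2/M phase (main 7). With 0.1 TPM added they were 46 at 12 h, 51 at 24 h and 20 at G2/M phase, and from usage within cells 35 at 12 h. Tcl1-005 reversed with 0.1 TPM added (−0.82) and within cells (−1.77), and Phc1-002 within cells (−0.048). The causes were not tested. Of 61 named members with a plate test 39 were called, 21 kept the call under all alternatives run and 18 lost it under at least 1. A low member's share moves with its host gene on the fitted scale, and TPM of single cells give no depth.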
